A study of Mus musculus with 6 samples.

Results

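The genes described here are 10 members of the transforming growth factor beta (TGF-beta) pathway: the ligand genes Tgfb1, Tgfb2 and Tgfb3, the receptor genes Tgfbr1, Tgfbr2 and Tgfbr3, the signal transducer Smad3, the feedback inhibitor Smad7, the activin subunit gene Inhba and the co-repressor Skil. They were chosen by name, with earlier results of these data known. Every probe annotated to them was read. That gave 20 of the 45281 probes on the array and 10 of the 19057 genes named on it. A probe was tested where its detection p-value, a rank against negative control beads, was under 0.05 on 2 or more of the 6 arrays. By this rule 14 probes of 9 members were tested, and Smad7 had no tested probe.

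TGF-beta ligands are secreted in a latent form and, once released, bind the type II receptor, which phosphorylates the type I receptor. The type I receptor phosphorylates the receptor SMADs, which enter the nucleus with Smad4 and switch target genes on or off, while Smad7 and the co-repressor SnoN (the Skil product) restrain the signal. In mammary epithelium the pathway is known both for slowing growth and, in established tumours, for favouring invasion and a mesenchymal state.

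The cells were 4T1ch9, a clone of the 4T1 mammary carcinoma line of Balb/c mice, so all arrays come from 1 clone. Cells received lentivirus carrying a short hairpin RNA (shRNA) against Stc1, which encodes the secreted glycoprotein stanniocalcin 1, at 6 µl (2 arrays) or 18 µl (2 arrays), or a non-targeting (NT) shRNA at 6 µl (NT replicate 1) or 18 µl (NT replicate 2). All cells, NT included, were transduced and kept in puromycin for 5 to 6 days before total RNA was taken. The number of hairpin sequences was not stated in the labels, nor whether replicates were separate cultures. The p-values therefore reflect only how far these arrays spread, which may be technical, and the number of arrays limits their precision.

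Mean raw signal was 253.6 to 310.6 on the STC1 arrays and 228.3 and 253.1 on the NT arrays, and 16252 to 17507 probes were above background per array. Stc1 itself was 2.54-fold lower with the STC1 hairpin (log2 difference -1.35, SE 0.14, limma adjusted p = 0.0025, n = 4 against 2). Of 8 epithelial markers Krt8, Krt18, Krt7 and Cdh1 were above background, and Epcam, Krt14, Krt19 and Krt5 were not. Cdh1 was only just so, at mean log2 intensities of 4.87 with the STC1 hairpin and 4.76 with NT. Among markers of other cells, 1 of 7 for fibroblasts (Pdgfra) and 1 of 4 for endothelium (Kdr) passed detection. So did 1 of the 4 leukocyte genes with a probe, of 6 listed (Cd3e), while Col1a1, Ptprc and Pecam1 did not. Cd3e (4.62 with the STC1 hairpin, 4.43 with NT) and Kdr (4.72 and 4.61) were also close to background. The summed linear signal of the fibroblast list, which is Pdgfra alone, was 880 to 1385 on the STC1 arrays and 843 and 1002 on the NT arrays, and its part in the results below was not tested.

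The receptor genes Tgfbr1 and Tgfbr3, Smad3 and Skil were higher in cells given the STC1 hairpin, Tgfbr2 was not, and the ligand genes did not pass the test. Of the 14 tested probes 6 rose, 1 fell and 7 did not pass (limma, Benjamini-Hochberg adjusted p under 0.05 over all 18076 tested probes). Of all tested probes 7.78% were called, 3.81% higher and 3.98% lower. The rises were in Tgfbr1 (2 probes), Tgfbr3, Smad3 (2 probes) and Skil, and the fall was in a dim Tgfbr2 probe. The median log2 difference was 0.44 over the 14 probes and 0.01 over all tested probes. In 9 of the 14 probes all STC1 arrays lay on the same side of both NT arrays, 8 above and 1 below. Over all tested probes this held for 35.4% (18.9% above and 16.5% below). As the members were chosen with earlier results of these data known, these shares describe them and are no test of the pathway. Without either NT array, 0 of 14 probes passed by limma (9 of 14 at an unadjusted p under 0.05 in each case), with adjusted p between 0.0547 and 0.193 for the 7 called probes. That fit has 1 NT array, assumed to vary like the STC1 arrays, and the log2 differences of the 7 called probes kept their signs. Tgfbr3 was then at 0.97 without NT replicate 1 and at 0.86 without NT replicate 2, and the brightest Tgfbr1 probe was at 0.78 and 0.63 in the same order. Leaving out STC1 6 µl replicate 1 left 4 calls, STC1 6 µl replicate 2 left 1 and STC1 18 µl replicate 2 left 4. At an unadjusted p under 0.05, 26% of all tested probes passed with all 6 arrays. Shares over all tested probes with 1 array left out are not given here. The drops in calls are therefore not read as a result about the members.

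**Figure D1:**
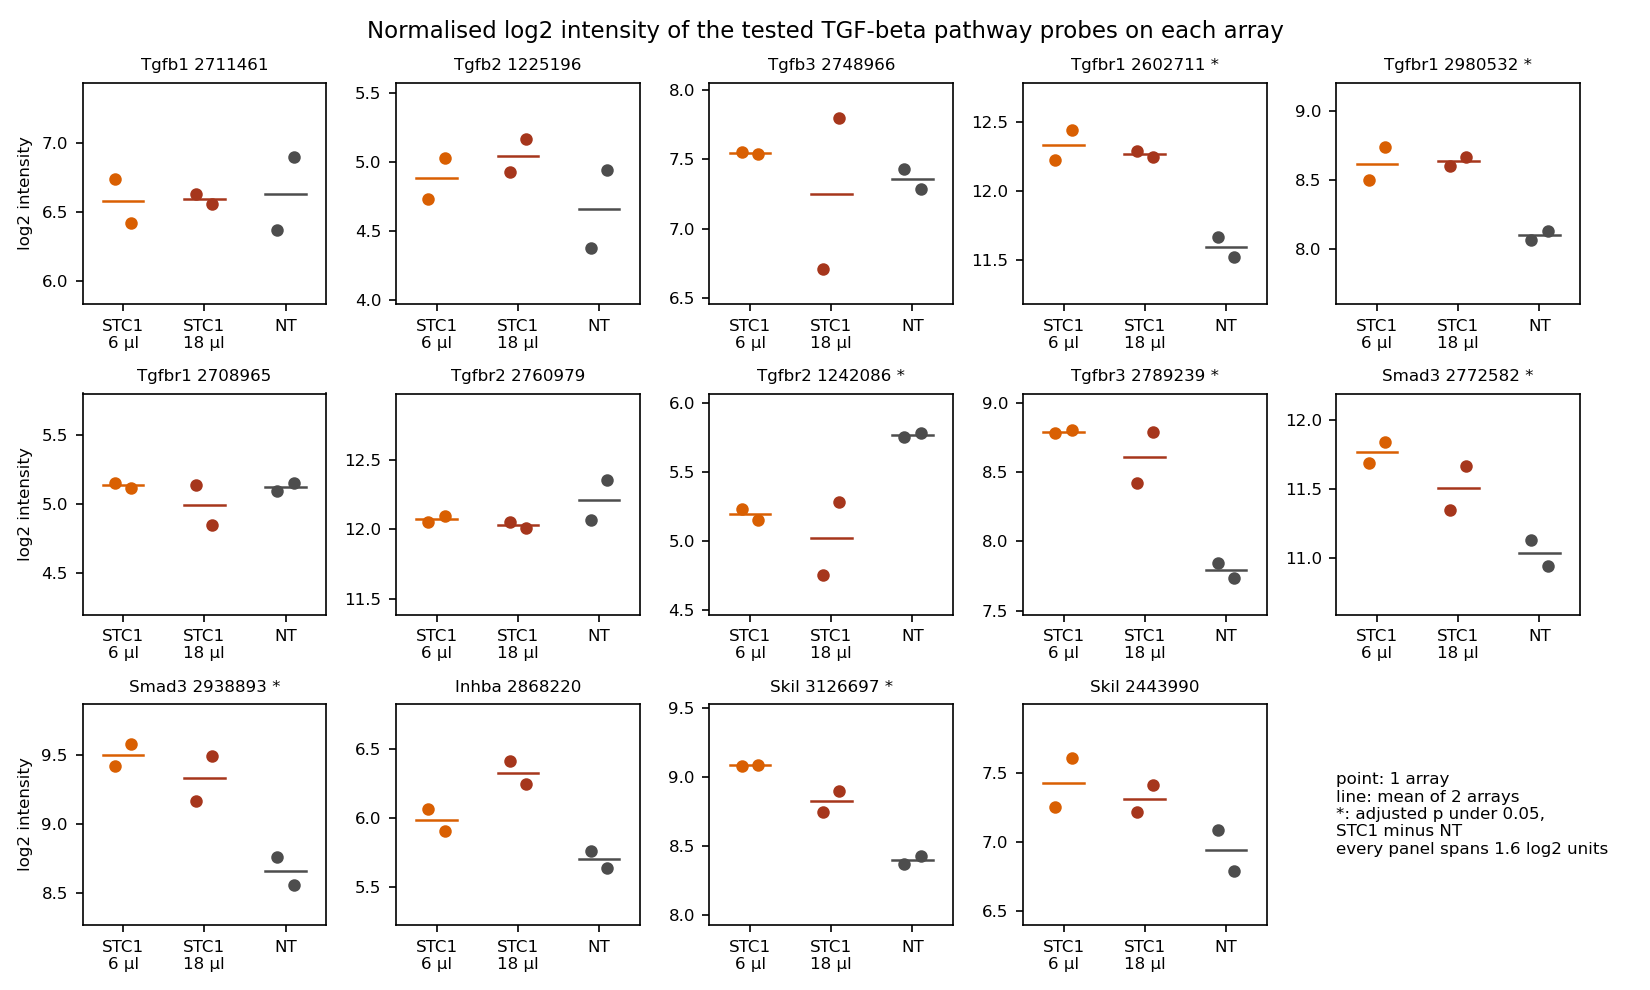
Normalised log2 intensity of each of the 14 tested probes on each array (gene and probe number above the panel). Points are arrays, lines are means of 2 arrays, groups run from STC1 6 µl and STC1 18 µl to NT, and each panel spans the same log2 range. For Tgfbr1 probes ILMN_2602711 and ILMN_2980532, Tgfbr3 and both Smad3 probes all 4 STC1 arrays lie above both NT arrays. The same holds for Inhba and for Skil probes ILMN_3126697 and ILMN_2443990.

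Tgfbr1, the type I receptor kinase, had 4 probes. The brightest (ILMN_2602711) read 12.23 and 12.44 on the STC1 6 µl arrays and 12.29 and 12.25 on the STC1 18 µl arrays, against 11.66 and 11.52 on the NT arrays, in normalised log2 intensity. All 4 STC1 values lay above both NT values, with raw intensities of 4686 to 5871 against 2750 and 2881. The level was 12.3 ± 0.098 with the STC1 hairpin (SD, n = 4) and 11.6 ± 0.101 with NT (SD, n = 2), a 1.63-fold rise (difference 0.71 in log2 with an SE of 0.12 and a 95% interval of 0.44 to 0.98, limma adjusted p = 0.0136). A second probe (ILMN_2980532) also rose, to 8.50, 8.74, 8.60 and 8.67 on the STC1 arrays, against 8.07 and 8.13 on the NT arrays (1.44-fold, log2 difference 0.53, SE 0.12, limma adjusted p = 0.0341). Another probe (ILMN_2708965) was close to background and overlapped between groups, at 4.85 to 5.16 on the STC1 arrays and 5.10 and 5.16 on the NT arrays (log2 difference -0.06, limma adjusted p = 0.786), and had no settled sign. The last one stayed at background on all 6 arrays. Probes of Tgfbr1 thus disagreed, and the same annotated transcript (NM_009370) stands behind all 4.

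Tgfbr2, the type II receptor that binds ligand first, did not pass as higher on any probe. Its brightest probe (ILMN_2760979) read 12.05, 12.10, 12.06 and 12.01 on the STC1 arrays, against 12.07 and 12.36 on the NT arrays. The groups overlapped, and the log2 difference of -0.16 did not pass (SE 0.12, interval -0.43 to 0.12 at 95%, adjusted p = 0.458 by limma). It turned to 0.01 with median scaling. The dim probe (ILMN_1242086) fell 1.58-fold (log2 difference -0.66, SE 0.15, limma adjusted p = 0.0374). It read 5.23, 5.15, 4.75 and 5.28 on the STC1 arrays, against 5.75 and 5.78 on the NT arrays, so all STC1 values lay below both NT values. STC1 18 µl replicate 1 (4.75) was not above background for it. The fall was -0.36 with the authors' processed values, which also lack background correction, and -0.30 with no background correction, both over 1.5 times smaller. It did not pass without the filter on dim probes. The other two of the 4 Tgfbr2 probes stayed at background on all 6 arrays.

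Tgfbr3 encodes betaglycan, a co-receptor that presents ligand to the type II receptor, and its rise had the lowest p-value among the 14 probes. It read 8.79 and 8.80 on the STC1 6 µl arrays and 8.43 and 8.79 on the STC1 18 µl arrays, against 7.85 and 7.74 on the NT arrays. All STC1 values lay above both NT values, and STC1 18 µl replicate 1 was the lowest of them. The level averaged 8.70 ± 0.185 with the STC1 hairpin (SD, n = 4) and 7.79 ± 0.077 with NT (SD, n = 2), a 1.88-fold rise (log2 difference 0.91, with an SE of 0.13 and a 95% interval of 0.61 to 1.21, adjusted p = 0.00758 by limma). The second Tgfbr3 probe stayed at background on all 6 arrays.

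Smad3, a receptor-activated SMAD that carries the signal to the nucleus, rose on both of its probes. The brighter (ILMN_2772582) read 11.69, 11.84, 11.35 and 11.67 on the STC1 arrays, against 11.13 and 10.94 on the NT arrays (1.52-fold, log2 difference 0.60, with an SE of 0.13 and a 95% interval of 0.30 to 0.91, adjusted p = 0.0341 by limma). The dimmer (ILMN_2938893) read 9.42, 9.58, 9.17 and 9.50 on the STC1 arrays, against 8.76 and 8.56 on the NT arrays (1.69-fold, log2 difference 0.76, SE 0.14, limma adjusted p = 0.0176). On both probes the groups did not overlap, and STC1 18 µl replicate 1 was again the lowest STC1 array. The brighter probe did not pass without the filter on dim probes.

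Promoter windows of RefSeq (GRCm38.p6), the 250 bases before a gene's start, were read for the members with an entry. They are shown for Tgfbr1 and Smad3, which rose together, and for the type II receptor Tgfbr2, whose brightest probe did not pass. Capitals mark GGGCGG on either strand, the GC box bound by Sp1 family factors.
Tgfbr1 chr4:47352972-47353221 (+ strand): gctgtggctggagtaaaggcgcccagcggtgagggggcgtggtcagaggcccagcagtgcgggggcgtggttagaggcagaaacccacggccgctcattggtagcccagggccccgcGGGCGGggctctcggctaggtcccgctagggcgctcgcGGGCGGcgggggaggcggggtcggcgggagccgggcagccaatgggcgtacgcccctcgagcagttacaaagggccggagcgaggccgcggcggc
Smad3 chr9:63757995-63758244 (- strand): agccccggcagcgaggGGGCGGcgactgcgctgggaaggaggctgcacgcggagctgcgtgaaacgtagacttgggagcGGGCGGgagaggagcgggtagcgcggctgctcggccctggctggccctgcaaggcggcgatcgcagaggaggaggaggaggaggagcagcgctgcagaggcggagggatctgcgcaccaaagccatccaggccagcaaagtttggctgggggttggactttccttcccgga
Tgfbr2 chr9:116175364-116175613 (- strand): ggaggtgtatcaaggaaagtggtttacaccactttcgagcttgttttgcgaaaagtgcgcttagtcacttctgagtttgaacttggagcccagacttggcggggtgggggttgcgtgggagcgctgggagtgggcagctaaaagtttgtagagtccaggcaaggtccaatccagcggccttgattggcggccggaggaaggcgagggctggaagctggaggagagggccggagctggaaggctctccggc
The Tgfbr1 and Smad3 windows hold 2 GC boxes each and the Tgfbr2 window holds 0, where 32.7% of all 32841 windows of this length hold at least 1. GC content was 74.8% for Tgfbr1, 69.2% for Smad3 and 58.4% for Tgfbr2, against a median of 52.4% over all windows. Tgfb1, which did not pass, has 5 GC boxes and 75.2% GC. Inhba, whose STC1 values all lay above both NT values, has 0 GC boxes and 43.2% GC. Tgfb2, which did not pass, has 0 GC boxes and 53.6% GC. A second Tgfbr1 entry, with a start downstream, has 0 GC boxes and 52.8% GC. AGAC, the core bound by SMADs (either strand), occurs 0 times for Tgfbr1, 1 time for Smad3 and 1 time for Tgfbr2, and 82.9% of all windows hold it. TGANTCA (AP-1, either strand, 6.75% of windows) is in none of the 3, nor is TATAAA (either strand, 12.4%). The motifs searched do not contain each other, and a match is a description of letters only.

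Skil encodes SnoN, a co-repressor that binds SMAD complexes and is itself a target induced by TGF-beta. Its brightest probe (ILMN_3126697, annotated to NM_001039090) read 9.08 and 9.08 on the STC1 6 µl arrays and 8.75 and 8.90 on the STC1 18 µl arrays, against 8.37 and 8.43 on the NT arrays (1.47-fold, log2 difference 0.55, with an SE of 0.11 and a 95% interval of 0.30 to 0.80, adjusted p = 0.0247 by limma). The second probe (ILMN_2443990, NM_011386) had values of 7.25, 7.61, 7.22 and 7.41 on the STC1 arrays, against 7.08 and 6.79 on the NT arrays. These did not overlap either, but the log2 difference of 0.43 did not pass (SE 0.15, limma adjusted p = 0.107). The remaining Skil probe was above background on 1 array only and was not tested.

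Smad7, the inhibitory SMAD that blocks the type I receptor and is a classical TGF-beta target, was read by 1 probe. It had raw intensities of 45.3 to 67.0 on the STC1 arrays and 47.6 and 50.5 on the NT arrays, and was above background on STC1 6 µl replicate 2 only (detection p-value 0.00855). No level or difference is given for it.

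Inhba encodes the inhibin beta A subunit, whose homodimer is activin A, a ligand that also signals through Smad2 and Smad3. Its probe read 6.07 and 5.91 on the STC1 6 µl arrays and 6.41 and 6.25 on the STC1 18 µl arrays, against 5.77 and 5.64 on the NT arrays. All STC1 values lay above both NT values, and the log2 difference of 0.45 narrowly missed the threshold (with an SE of 0.12 and a 95% interval of 0.19 to 0.72, adjusted p = 0.0519 by limma). It passed among probes detected on all 6 arrays (adjusted p = 0.034) and with median scaling (0.57, adjusted p = 0.015). It was over 1.5 times smaller, and did not pass, with the authors' processed values (0.29, adjusted p = 0.0544) and with no background correction (0.25, adjusted p = 0.0609).

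The 3 ligand genes did not pass. Tgfb1 had 6.73, 6.42, 6.63 and 6.56 on the STC1 arrays, against 6.37 and 6.89 on the NT arrays, so the NT values enclosed all STC1 values (log2 difference -0.05, 95% interval -0.42 to 0.33, limma adjusted p = 0.885). Tgfb3 had 7.55, 7.54, 6.71 and 7.80 on the STC1 arrays, against 7.43 and 7.28 on the NT arrays (log2 difference 0.04, 95% interval -0.53 to 0.62, limma adjusted p = 0.934). The spread within the STC1 18 µl pair exceeded the difference between groups. Tgfb2 was dim, at 4.73, 5.03, 4.92 and 5.16 on the STC1 arrays and 4.38 and 4.94 on the NT arrays, of which NT replicate 1 was not above background (log2 difference 0.31, 95% interval -0.09 to 0.71, limma adjusted p = 0.312). Without NT replicate 1 it was 0.03 and without NT replicate 2 0.60. In bulk RNA, a change in the share of cells that carry a transcript and a change in its amount per cell cannot be told apart, for any of these genes.

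**Figure D2:**
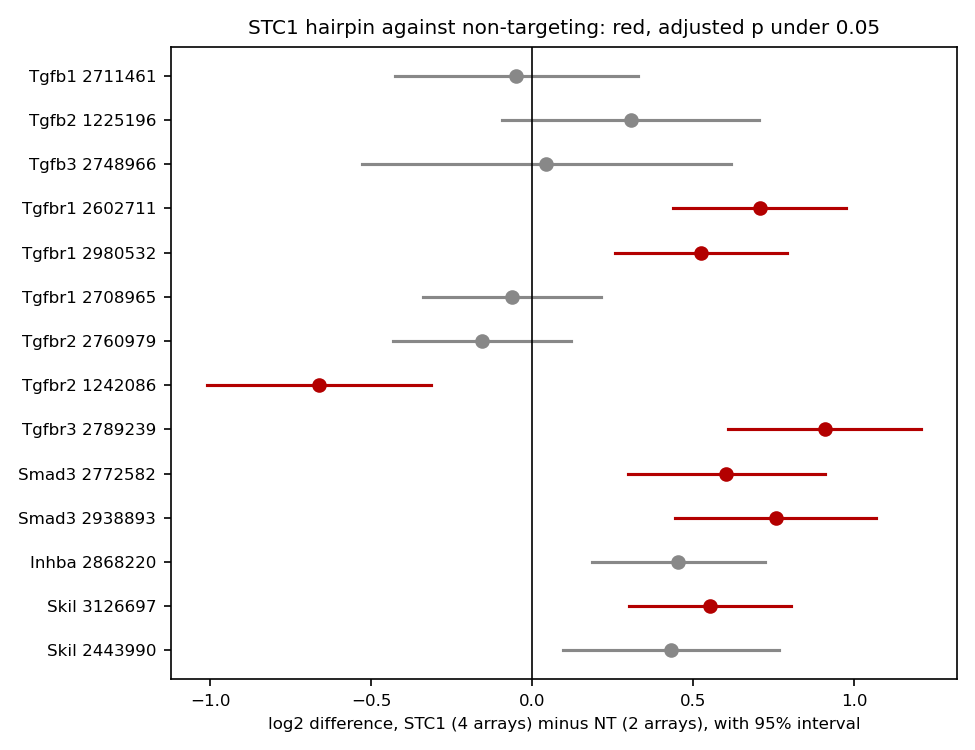
Log2 difference of each tested probe, STC1 (4 arrays) minus NT (2 arrays), with its 95% interval from limma. Red marks an adjusted p under 0.05: 6 probes of Tgfbr1, Tgfbr3, Smad3 and Skil lie right of 0 and 1 dim Tgfbr2 probe lies left of it, and the intervals of Tgfb1, Tgfb2 and Tgfb3 cross 0.

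The virus volumes were compared next. STC1 at 6 µl against NT called 5 of the 14 probes, 5 higher and 0 lower, where 3.82% of all tested probes were called (2% higher, 1.82% lower). STC1 at 18 µl against NT called 3, 3 higher and 0 lower, where 3.97% were called (1.68% higher, 2.28% lower). At an unadjusted p under 0.05, 8 of 14 passed at each volume, against 22.9% of all tested probes at 6 µl and 21.6% at 18 µl. At 18 µl the count of calls moved between 0 and 8 with the processing. The share of all tested probes called moved as well, to 8% where 8 member probes were called. Both comparisons use the same NT arrays. Tgfbr3 was higher by 1.00 at 6 µl (SE 0.15, limma adjusted p = 0.0166) and, at 18 µl, by 0.82 (SE 0.15, adjusted p = 0.0276), and the brightest Tgfbr1 probe by 0.74 (adjusted p = 0.0272) and 0.67 (adjusted p = 0.036), on the log2 scale. The dimmer Smad3 probe had 0.84 at 6 µl (adjusted p = 0.0286), against 0.67 at the larger volume (adjusted p = 0.0549), and the brighter 0.73 (adjusted p = 0.0405) against 0.47 (adjusted p = 0.123). For Skil the brightest probe had 0.68 with 6 µl (adjusted p = 0.0277) and, with 18 µl, 0.42 (adjusted p = 0.0999). Inhba ran the other way, with 0.28 for 6 µl (adjusted p = 0.254) and, for 18 µl, 0.62 (adjusted p = 0.0443). The dim Tgfbr2 probe had -0.58 at the smaller volume (adjusted p = 0.103) and -0.75 at the larger (adjusted p = 0.0556), so it passed in neither.

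A probe that passes at 1 volume and not at the other is not thereby shown to differ between them, so the volumes were also set against each other. Between STC1 at 18 µl and STC1 at 6 µl, limma called 0 of the 14 probes, where 0% of all tested probes were called (1 of 14 at an unadjusted p under 0.05, against 6.8% of all). That probe was Inhba, with 0.34 (95% interval 0.03 to 0.65, adjusted p = 0.691). The interval was -0.55 to 0.03 for the brightest Skil probe, -0.53 to 0.16 for Tgfbr3 and -0.38 to 0.24 for the brightest Tgfbr1 probe. When each STC1 volume was set against the NT array of its own volume, the difference between the effects was called by limma for 0 of the 14 probes (0 at an unadjusted p under 0.05, against 4.28% of all), with 1 NT array per volume assumed to vary like the others. For Inhba it was 0.46 (95% interval -0.12 to 1.04), and for Tgfbr3 -0.08 (95% interval -0.72 to 0.56).

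**Figure D3:**
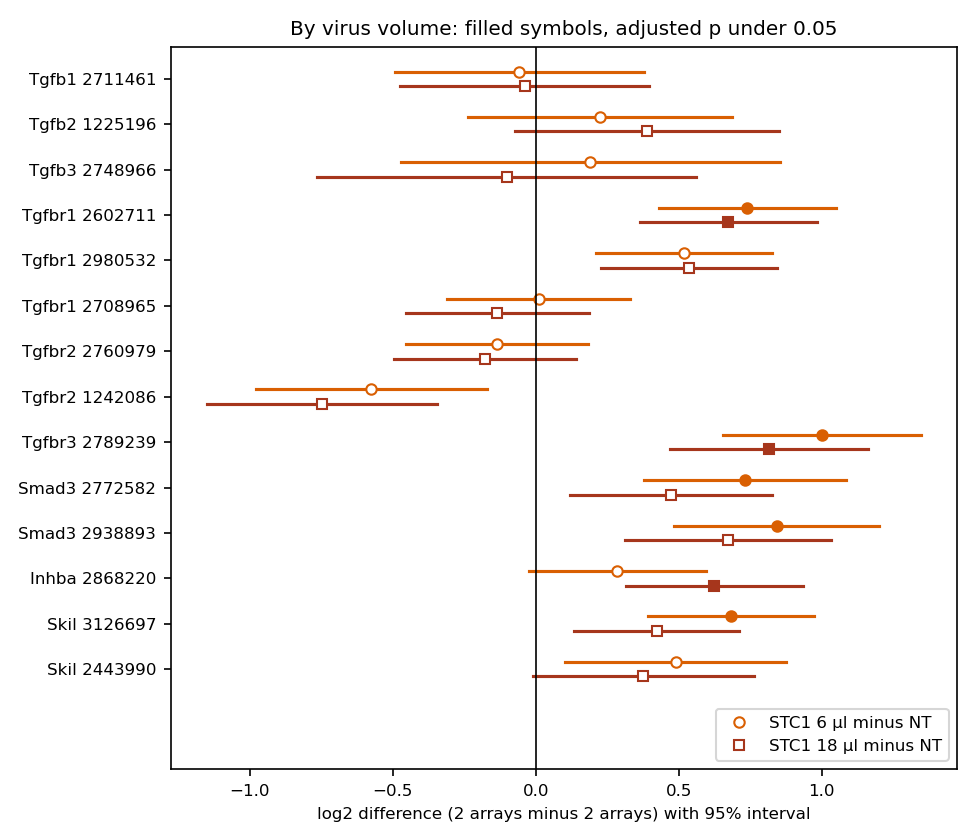
Log2 difference of each tested probe at 6 µl (circles) and 18 µl (squares) of STC1 virus against the same 2 NT arrays, with 95% intervals, filled where the adjusted p was under 0.05. Tgfbr3 and the brightest Tgfbr1 probe are filled at both volumes, Inhba at 18 µl, and both Smad3 probes and the brightest Skil probe at 6 µl.

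The rest of the pathway was read through 5 lists of 102 genes, also chosen with earlier results known. Of these, 94 had a named probe and 57 were tested by their brightest tested probe. In all 7 rose, 3 fell and 47 did not pass, where 8.17% of all 9754 genes so represented were called (4.45% higher and 3.72% lower). The median over all those genes was 0.03. With either NT array, either STC1 6 µl array or STC1 18 µl replicate 2 left out, fewer list genes were called. The share of all genes called in those fits is not given here, so the drop is not read as a trait of the lists.

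Among 9 tested genes of latency and activation 1 rose, 0 fell and 8 did not pass, with a list median of -0.0049. Ltbp4, which encodes a latent TGF-beta binding protein of the matrix, rose 1.71-fold (log2 difference 0.77, SE 0.13, limma adjusted p = 0.0139). It read 8.83, 8.91, 8.47 and 8.82 on the STC1 arrays, against 8.02 and 7.95 on the NT arrays, without overlap. A second Ltbp4 probe was at 0.55 (adjusted p = 0.0688). Its relative Ltbp3 (0.17) and Thbs1 (-0.24), whose product thrombospondin 1 activates latent TGF-beta, did not pass.

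Of the activin arm 2 of 14 genes were tested, the type II receptor genes Acvr2b (log2 difference -0.14) and Acvr2a (-0.19), and neither passed. In the bone morphogenetic protein (BMP) arm 11 genes were tested, of which 0 rose, 1 fell and 10 did not pass, with a median of -0.17. Id3, an inhibitor of bHLH factors and a classical BMP target, fell 1.63-fold (log2 difference -0.71, SE 0.16, limma adjusted p = 0.0362), with 6.52, 6.36, 5.75 and 5.84 on the STC1 arrays, against 7.11 and 6.54 on the NT arrays. All STC1 values lay below both NT values, but NT replicate 1, the 6 µl NT array, carried much of the size. Without it the difference was -0.43, over 1.5 times smaller. Against both NT arrays it was -0.39 at 6 µl (limma adjusted p = 0.258) and -1.03 at 18 µl (adjusted p = 0.0256). Over both volumes Id3 was at -0.44 with no background correction, and did not pass without the filter on dim probes (adjusted p = 0.0936). The ligand gene Bmp7 (-0.45, adjusted p = 0.0747) and the receptor gene Bmpr1a (0.31, adjusted p = 0.13) did not pass, nor did Id1 (-0.12) or Id2 (-0.27).

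Of 16 tested SMADs and co-regulators 2 rose, 1 fell and 13 did not pass, with a median of 0.10. Trim33, a ubiquitin ligase that acts on Smad4 complexes, was 1.65-fold higher by its brightest probe (log2 difference 0.72, SE 0.11, limma adjusted p = 0.0111), but its 4 other tested probes ranged from -0.10 to 0.11. Ep300, an acetyltransferase co-activator of SMADs, was 1.36-fold higher (0.44, adjusted p = 0.0437), with a second probe at -0.0046. Probes of these genes disagreed. Smad6, the inhibitory SMAD of the BMP arm, fell 1.38-fold (-0.47, adjusted p = 0.0416). It was above background on 2 of 4 STC1 arrays and both NT arrays, and was at -0.24 with the authors' processed values and -0.19 with no background correction, neither of which passed. Usp9x (-0.33) and Usp15 (0.30), deubiquitinases of SMAD signalling, did not pass, and Smad2 was at 0.17.

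Of 19 tested genes known to be induced by TGF-beta 4 rose, 1 fell and 14 did not pass, with a median of 0.04. Fn1, fibronectin of the matrix, rose 1.81-fold (log2 difference 0.86, SE 0.21, limma adjusted p = 0.0442), with 10.44, 9.82, 9.47 and 10.09 on the STC1 arrays, against 9.14 and 9.05 on the NT arrays. It did not pass without the filter on dim probes (adjusted p = 0.135). A further Fn1 probe passed (0.67, adjusted p = 0.0451) and another did not (0.24). Ccn2, connective tissue growth factor, rose 1.64-fold (0.72, adjusted p = 0.0347), and was at 0.43 without NT replicate 2, over 1.5 times smaller (adjusted p = 0.194). It did not pass without the filter on dim probes either (adjusted p = 0.0891). Its second probe rose as well (0.66, adjusted p = 0.0331). Vegfa, the vascular growth factor, rose 1.77-fold (0.82, adjusted p = 0.0139), and on a second probe by 0.58 (adjusted p = 0.0464). Tgfbi, a matrix protein named for its induction by TGF-beta, was above background on 3 of 4 STC1 arrays and on 0 of 2 NT arrays. By the mean of both STC1 volumes it was at least 1.12-fold higher, taking for each NT array the higher of its own signal and the lowest detected signal. That bound was not worked out for each volume. Against NT the log2 difference was 0.94 at 18 µl but 0.32 at 6 µl, which did not pass (limma adjusted p = 0.223). Between the volumes it was 0.63 and did not pass either (adjusted p = 0.542). Tgfbi entered the test only through the STC1 arrays, so its place in the counts above supports no direction. It did not pass with virus volume as a block (adjusted p = 0.0593).

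Cdkn1a, the cell cycle inhibitor p21, went the other way and fell 2.09-fold (-1.06, SE 0.18, limma adjusted p = 0.0136), on a second probe too (-0.90, adjusted p = 0.0093). It read 5.59, 5.40, 5.93 and 5.34 on the STC1 arrays, against 6.48 and 6.78 on the NT arrays, without overlap. The fall was over 1.5 times smaller with the authors' processed values (-0.70) and with no background correction (-0.61), and did not pass without the filter on dim probes (adjusted p = 0.0526). Col4a1, a basement membrane collagen, was at -0.44 (adjusted p = 0.0569) and Tgm2, a transglutaminase, at 0.40 (adjusted p = 0.135), and neither passed. Among transcription factors of mesenchymal transition Snai1 (-0.06), Twist1 (-0.07), Zeb1 (-0.02) and Zeb2 (0.08) did not pass. Zeb1 was close to background, being detected on 3 arrays only, and Snai2 was not tested.

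**Figure D4:**
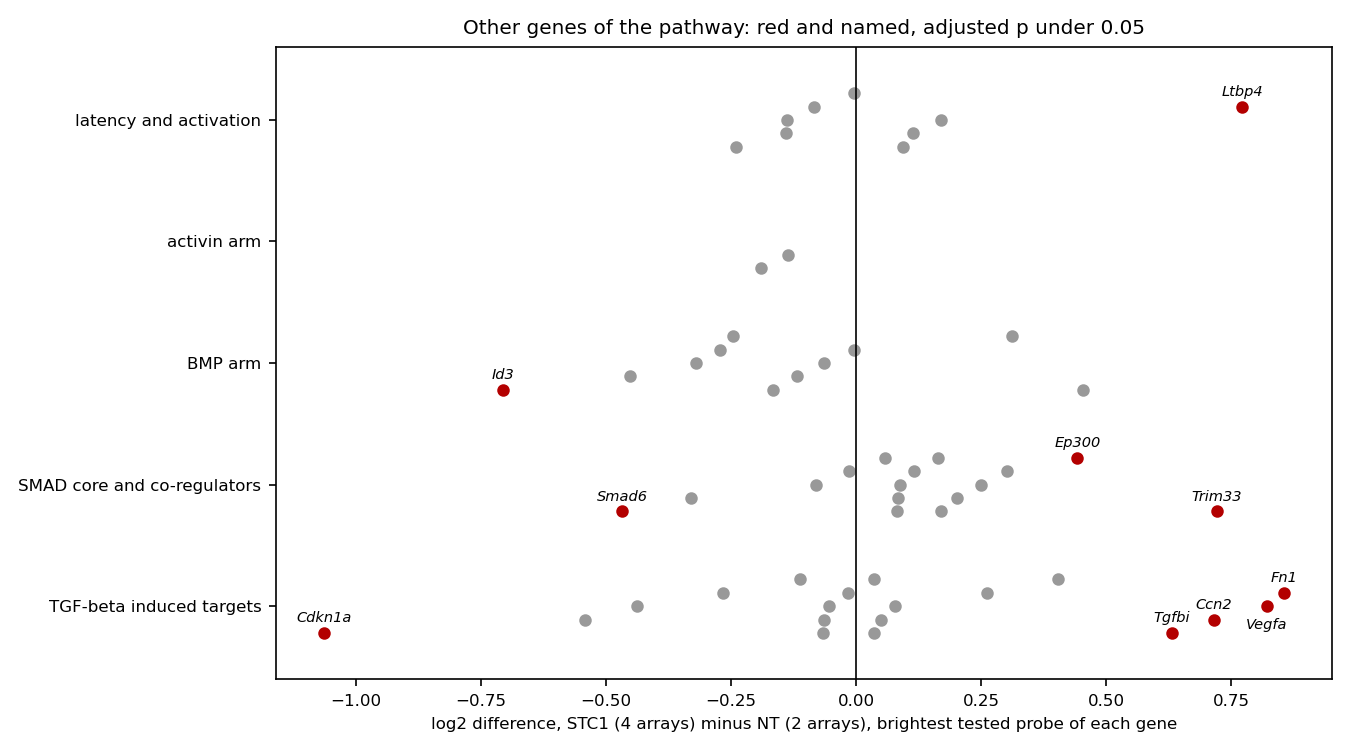
Log2 difference, STC1 (4 arrays) minus NT (2 arrays), of the 57 tested genes of the 5 lists, each by its brightest tested probe, with the vertical offset within a list only separating points. Red named points had an adjusted p under 0.05: 7 lie right of 0 and Id3, Smad6 and Cdkn1a lie left of it.

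The genes most like the 2 members with the smallest p-values were sought among 1242 genes with an SD of at least 0.3 over the 6 arrays. Nearest to Tgfbr3 by Pearson's r over the 6 arrays were Herc2 (0.997), Adamtsl4 (0.997) and the water channel gene Aqp1 (0.996). Nearest to Tgfbr1 were Fyco1 (0.995), Zmym3 (0.991) and the bicarbonate transporter gene Slc4a4 (0.990). The arrays fall into STC1 and NT, a difference that all 6 genes share with the members, and no test is attached.

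**Figure D5:**
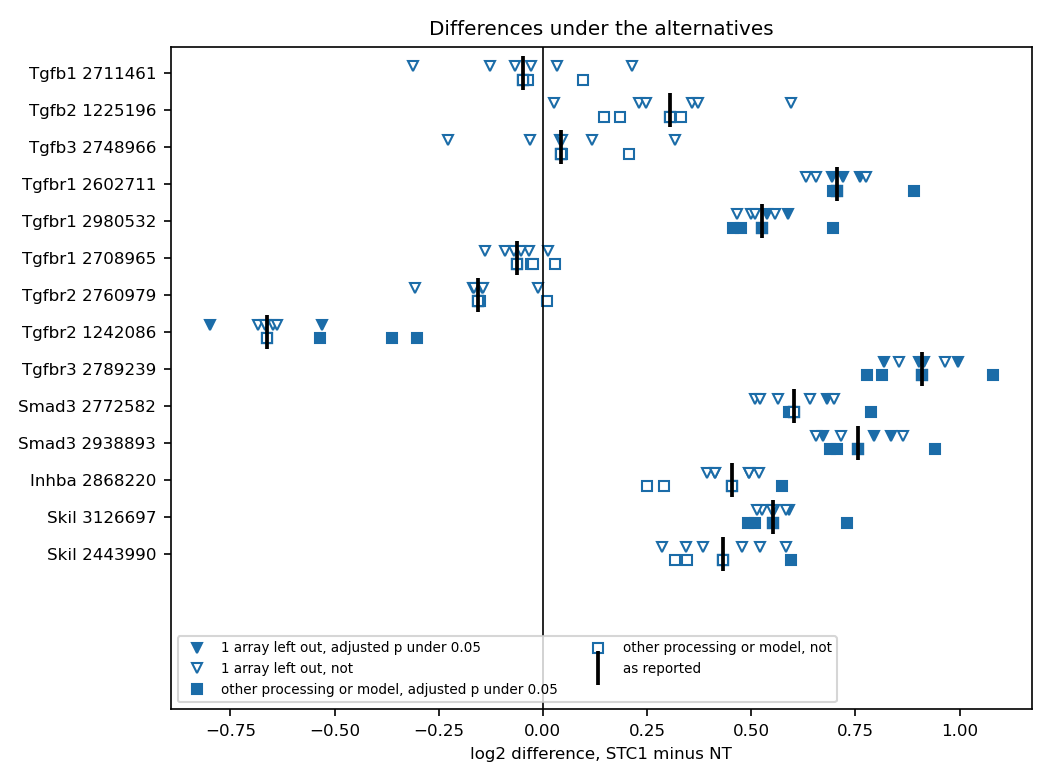
Log2 difference of each tested probe, STC1 minus NT, as reported (vertical bar), with 1 array left out (triangles) and under other processing or models (squares), filled where the adjusted p was under 0.05. The 7 called probes keep their side of 0 throughout, while Tgfb1, Tgfb3, the dim Tgfbr1 probe and, with median scaling, the bright Tgfbr2 probe cross it.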

How the data were processed

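RNA from 6 samples of 4T1ch9 cells was hybridised to Illumina bead arrays. The deposited non-normalised table holds linear intensity per probe and array and a detection p-value beside it, per the file headers. The deposited processed table holds log2 values of unstated scale. Set against quantile-normalised log2 raw intensities, no column was off by more than 0.000154 (median of absolute differences). The authors' values thus lack background correction too. As alternatives, they and omitting background correction are nearly the same check. Column medians were 5.78. The scanner software was not given in the sources used here, and no chip or batch was labelled.

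Intensities were background-corrected and quantile-normalised with neqc (limma 3.58.1, R 4.3.3, offset 16). Differences of several dim probes were smaller with no background correction. Symbols came from the platform annotation of 34903 probes (34885 with 1 symbol, 18 with several), updated through 34807 matched gene identifiers, which left 10396 probes unnamed. lmFit and eBayes fitted 1 mean per group (3 residual, 5.66 prior degrees of freedom), or 1 per virus and volume for the effects at matched volume (2 and 6.50), with two-sided tests and Benjamini-Hochberg adjustment over 18076 probes. Folds were taken as powers of 2. Per list gene the brightest tested probe was used, and every list gene that passed and the 2 next by p were named, others where a list is spelled out. Members and lists were chosen with earlier results of these data known. Same-numbered arrays deviated with correlations of -0.11 to 0.00 between groups, so the numbers were not taken to pair them. The procedure was tested on simulated data. Alternatives were the authors' values, no background correction, median scaling, other filters, replicate and volume blocks and each array left out.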

Additional observations from a re-analysis of the deposited data

Results flagged for a closer look

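In Tgfbr3, STC1 18 µl replicate 1 (8.43) stood apart from the other 3 STC1 arrays, by a gap of 0.951 of the whole range of the 4. Without it the log2 difference was 1.00 (limma adjusted p = 0.0103). In the dim Tgfbr1 probe ILMN_2708965, STC1 18 µl replicate 2 (4.85) stood apart in the same way, with a gap of 0.869 of the range. Chance flags about 5% of groups, and 14 probes were looked at.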

How the results depend on the processing

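The 7 called member probes kept their sign under every alternative run. Detection on all 6 arrays removed the dim Tgfbr2 probe. With 1 array left out, 0 to 7 member probes were called for STC1 against NT, 0 to 6 at 6 µl, 0 to 1 at 18 µl, and 1 to 8 pathway list genes. At 18 µl the authors' values gave 8 calls, omitting background correction 7, median scaling 6, detection on all 6 arrays 5, and dropping the filter on dim probes 0 (8 at an unadjusted p under 0.05). Of all tested probes 8% were called at 18 µl with the authors' values, 8.67% without background correction and 5.37% with median scaling. The fit as reported called 3.97%, so calls rose across the array too. Dropping the filter on dim probes also gave 3 calls at 6 µl and 6 list genes. Median scaling moved the median of all tested probes to 0.149, and relative to it Tgfbr3 was at 0.93 and the brightest Tgfbr1 probe at 0.74. All 16 reversals were of values that had not passed. With median scaling Tgfb1 was at 0.096, the dim Tgfbr1 probe at 0.029, the bright Tgfbr2 probe at 0.0096 (0.11 at 6 µl) and Acvr2b at 0.021. With 1 array left out, Tgfb1 ranged between -0.31 and 0.21, Tgfb3 between -0.23 and 0.32, Thbs1 between -0.58 and 0.097, Acvr2a between -0.53 and 0.15, and the dim Tgfbr1 probe between -0.14 and 0.011. At 6 µl the dim Tgfbr1 probe then lay between -0.019 and 0.038 and the bright Tgfbr2 probe between -0.29 and 0.0089, and at 18 µl the dim Tgfbr1 probe between -0.29 and 0.012. The cause was not tested. With the replicate number as a block, 7 member probes were called, 5 at 6 µl, 2 at 18 µl and 0 between the volumes, and 7 list genes (Smad6, Ep300 and Fn1 did not pass). Crossing the numbers, chosen after seeing the data, gave 6 member probes and 7 list genes. With volume as a block it was 7 and 9. The effect at matched volume could not be fitted without an NT array. Dim probes near background limit Tgfb2, Smad6, Tgfbi, Zeb1 and the dim probes of Tgfbr1 and Tgfbr2.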
